A study of Homo sapiens with 15 samples.

Results

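The IFIT gene cluster on the long arm of chromosome 10 holds the genes of the interferon-induced proteins with tetratricopeptide repeats. Its 5 protein-coding members, IFIT2, IFIT3, IFIT1B, IFIT1 and IFIT5 in order of position, span 89302046 to 89420997 on hg38 (119.0 kb). Members were chosen by name and locus, and every deposited MPP8 peak within the cluster and 10 kb on each side (89292046 to 89430997) was taken. That window held 5 of the 427 peaks of the TASOR KO list and 0 of the 264 peaks of the TASOR2 KO list. The cluster was chosen with its peaks in both lists known, so these counts are a description and were not tested.

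K-562 is a human chronic myeloid leukaemia line. ChIP-seq with an antibody to MPP8 gave 1 library from cells carrying a TASOR knockout and 1 from cells carrying a TASOR2 knockout. Both knockouts were made with CRISPR/Cas9 and grown as clonal populations from single sorted cells, and neither sample title names a transgene. How many clones stand behind each library is not stated, and since a genotype had 1 library, neither a spread nor a test could be given. The remaining 13 samples include an input and MPP8 ChIP of MPP8 KO and wild-type cells. They were not analysed here, so signal at these loci that is not due to MPP8 was not measured. Peak lists hold no expression values, so the identity of the cells and the knockouts could not be checked against marker genes.

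IFIT genes are silent or low in most resting cells and are switched on by type I and type III interferon through a promoter element called the interferon-stimulated response element. Their products bind RNA: IFIT1 recognises viral RNA caps that lack a host methyl group and blocks translation, IFIT2 and IFIT3 join it in complexes that IFIT3 stabilises, and IFIT5 binds RNA with a free triphosphate end. MPP8 is a chromodomain protein that reads methylated histone H3 lysine 9 within the human silencing hub (HUSH), whose scaffold is TASOR. TASOR2 is the paralog of TASOR.

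The start regions of the IFIT genes are shown because the peaks lay over them and because they differ in 1 motif. RefSeq promoter sequences (GRCh38.p14, the same assembly as hg38) were found for 4 of the 5 genes, with 2 starts for IFIT3. IFIT2 was not among them. Each sequence below runs from 250 bases before the annotated start to its first 10 bases on the plus strand, which is the sense strand of these 4 genes. Capitals mark each match to the core of the interferon-stimulated response element, searched on both strands as GAAA, any 2 bases, then GAAA. All matches lay on the minus strand and so read as TTTC, any 2 bases, TTTC. Motifs, GC content and CpG dinucleotides were counted over the whole 300 bases of each table entry, 250 before the start and 50 from it on, so a count can exceed that in the letters shown. The sequences are IFIT3 at its first start (chr10:89327747-89328006), IFIT3 at its inner start (chr10:89332279-89332538), IFIT1 (chr10:89392373-89392632), IFIT5 (chr10:89414318-89414577) and IFIT1B (chr10:89377806-89378065).
IFIT3 first start: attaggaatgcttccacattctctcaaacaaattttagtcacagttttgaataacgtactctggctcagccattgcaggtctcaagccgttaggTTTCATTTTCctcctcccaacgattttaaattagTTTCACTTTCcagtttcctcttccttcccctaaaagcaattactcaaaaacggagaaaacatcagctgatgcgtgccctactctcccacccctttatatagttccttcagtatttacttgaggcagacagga
IFIT3 inner start: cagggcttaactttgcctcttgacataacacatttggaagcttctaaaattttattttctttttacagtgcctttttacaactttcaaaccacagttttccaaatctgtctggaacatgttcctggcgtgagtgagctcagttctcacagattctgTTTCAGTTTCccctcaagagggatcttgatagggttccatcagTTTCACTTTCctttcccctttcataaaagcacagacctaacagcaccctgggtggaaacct
IFIT1: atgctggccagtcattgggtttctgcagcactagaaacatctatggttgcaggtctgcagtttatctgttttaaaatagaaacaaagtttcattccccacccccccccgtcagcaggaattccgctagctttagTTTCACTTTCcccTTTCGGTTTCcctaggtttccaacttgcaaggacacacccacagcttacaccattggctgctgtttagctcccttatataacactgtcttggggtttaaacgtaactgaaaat
IFIT5: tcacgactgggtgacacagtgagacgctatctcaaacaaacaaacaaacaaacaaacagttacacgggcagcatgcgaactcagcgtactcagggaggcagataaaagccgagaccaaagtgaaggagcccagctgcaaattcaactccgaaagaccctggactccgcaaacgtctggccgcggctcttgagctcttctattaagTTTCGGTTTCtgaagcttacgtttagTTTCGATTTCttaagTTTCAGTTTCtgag
IFIT1B: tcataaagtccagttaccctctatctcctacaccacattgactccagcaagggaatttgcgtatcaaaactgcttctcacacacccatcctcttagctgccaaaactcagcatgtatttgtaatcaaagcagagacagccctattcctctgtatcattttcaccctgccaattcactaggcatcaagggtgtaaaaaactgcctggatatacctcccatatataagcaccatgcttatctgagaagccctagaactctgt

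The 4 starts that lay under a TASOR KO peak held 2, 2, 2 and 3 matches to the core, and the IFIT1B start, under no peak, held 0. At IFIT3 the matches lay at bases -156 to -147 and -122 to -113 from the first start, counted with the start as 1 and no base 0. At the inner start of IFIT3 they lay at -94 to -85 and -51 to -42. At IFIT1 they lay at -116 to -107 and -103 to -94, and at IFIT5 at -45 to -36, -19 to -10 and -4 to 6. No match began more than 156 bases before its start, and the last match at IFIT5 ran across the start itself.

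Of all 35116 promoters of the table, each of 300 bases, 1255 (3.57%) held the core. The stricter form, with CT after the core, was present at the same 4 IFIT starts, in 1, 1, 1 and 3 copies, and in 96 promoters in all (0.273%). The other motifs searched, also on both strands, did not set these starts apart from IFIT1B. The gamma-activated site TTCNNNGAA was found at 0 of the 5 (7.66% of all promoters). TATAAA was found at the first IFIT3 start alone (11.5% of all promoters), and there on the minus strand, not the sense strand. Variants of TATAAA were not searched, so this does not tell which starts have a TATA box. A match is a run of letters, not a bound site, and which factors bind there was not measured.

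For some pairs of these promoters the longest shared run of bases ran through the core. The first IFIT3 start and the IFIT1 start shared 15 bases, TTAGTTTCACTTTCC, held by 2 of the 35116 promoters. Both IFIT3 starts and the IFIT1 start shared 13 of those bases, AGTTTCACTTTCC, found in 4 promoters of the table, the fourth being that of NPR3. IFIT5 shared at most 11 bases with any other IFIT start. With the first IFIT3 start the run (TCTCAAACAAA) lay away from the core, and with the inner IFIT3 start it held the core (GTTTCAGTTTC). IFIT1 and IFIT5 shared 10 bases, TTTCGGTTTC, which are a match to the core. IFIT1B shared at most 10 bases, with IFIT5, in a run without the core. GC content lay between 40.3% at the inner IFIT3 start and 47.7% at IFIT5, against a median of 58.7% over the table. The number of CpG dinucleotides in the 300 bases was 16 at IFIT5, against a median of 14 over the table, and 1 to 5 at the other starts.

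IFIT1 (gene ID 3434, chromosome 10, 89392623 to 89406487) carried the strongest peak of the cluster. It ran from 89390162 to 89393230 (3069 bp), with a deposited fold enrichment over the caller's background of 4.43 and a deposited −log10 q of 2.56 (q = 0.00277), rank 70 of 427 in the TASOR KO list. The TASOR2 KO list had 0 peaks there. The peak began 2461 bp upstream of the start and ended 607 bp downstream, so that 80.2% of it lay before the gene and 4.39% of the gene was covered.

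IFIT5 (gene ID 24138, 89414568 to 89420997) had the next highest −log10 q. Its TASOR KO peak ran from 89412564 to 89415764 (3201 bp), with a fold of 3.78, a −log10 q of 1.41 (q = 0.0392) and rank 122. It reached 2004 bp upstream and 1196 bp downstream of the start, and no TASOR2 KO peak met the gene. IFIT1 and IFIT5 were the members whose peaks reached a q of 0.05 or less. The other 3 peaks of the cluster missed it.

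IFIT3 (gene ID 3437, 89327997 to 89340968) was the member with more than 1 TASOR KO peak, and each lay on an annotated start. The peak on the first start ran from 89326793 to 89328086 (1294 bp, the narrowest of the 5), with a fold of 3.80, a −log10 q of 1.24 (q = 0.0581) and rank 142. It lay almost wholly before the gene, 1204 bp upstream against 89 bp downstream. The peak on the inner start, which lies 4532 bp further on, ran from 89331148 to 89333388 (2241 bp), with a fold of 3.58, a −log10 q of 0.94 (q = 0.114) and rank 175, the weakest of the cluster. It extended 1381 bp upstream and 859 bp downstream of that start. Between these peaks lay 3061 bp without a call. Together they covered 18.0% of the gene, close to the 18.6% of IFIT5 that its peak covered.

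IFIT2 (gene ID 3433, 89302046 to 89309271) had the widest peak, from 89298785 to 89302516 (3732 bp), with a fold of 3.71, a −log10 q of 1.11 (q = 0.0769) and rank 157. It covered the lower-coordinate end of the gene and lay mostly outside it, 3261 bp below that end and 470 bp above. The noncoding gene LOC105378419 ends 143 bp below IFIT2, and 83.6% of the peak lay within it. The peak therefore cannot be assigned to IFIT2 alone.

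IFIT1B (gene ID 439996, 89378056 to 89385205), a close paralog of IFIT1, had 0 peaks in either list. The nearest TASOR KO peak was that of IFIT1, which began 4957 bp above its upper end, and the nearest on the other side was the inner IFIT3 peak, 44668 bp below its lower end. IFIT6P, a pseudogene between IFIT3 and IFIT1B, also lay under no peak, in a gap of 56.8 kb between the inner IFIT3 peak and the IFIT1 peak.

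**Figure D1:**
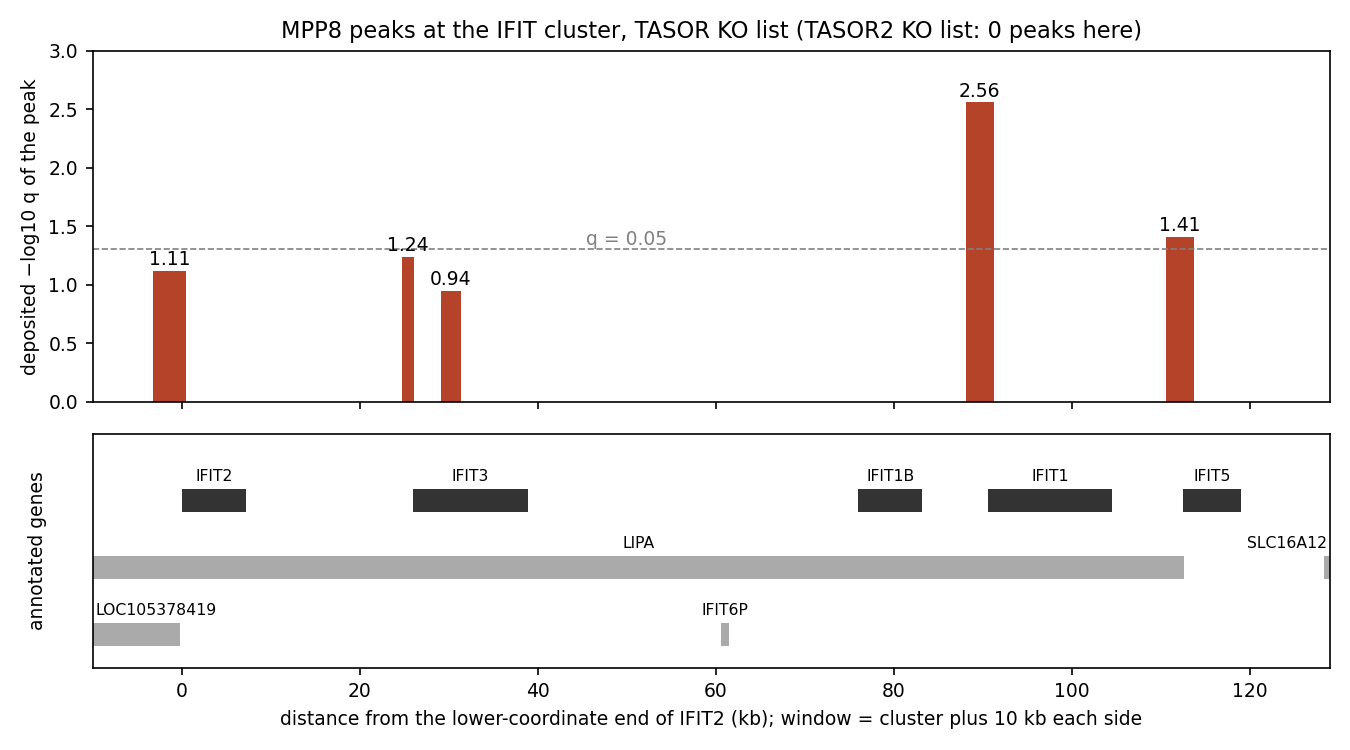
MPP8 peaks of the TASOR KO list over the IFIT cluster, with distance from the lower-coordinate end of IFIT2 in kb on the x axis and the deposited −log10 q of each peak as bar height, above the annotated genes (members dark, others grey). The 5 bars stand at the ends of IFIT2, IFIT3, IFIT1 and IFIT5 and at a place inside IFIT3, the bars of IFIT1 (2.56) and IFIT5 (1.41) pass the dashed line at q = 0.05, and IFIT1B has none.

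Counted as genes, 4 of the 5 members met a TASOR KO peak when extended by 1 kb on each side, where 1.12% of 20037 protein-coding genes did, and 0 of 5 met a TASOR2 KO peak, where 0.893% did. With peaks of q 0.05 or less the counts were 2 in TASOR KO (0.514% of protein-coding genes) and 0 in TASOR2 KO (0.299%). Nothing is read from these shares, since the members were chosen on them. Of the 5 annotated starts in the promoter table, 4 lay under a TASOR KO peak and 0 under a TASOR2 KO peak. Of all starts 0.39% and 0.0142% did, that is 137 and 5 starts. Starts within 1 kb of a peak numbered the same 4 and 0 among the IFIT starts, against 0.456% and 0.0228% of all.

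All 4 covered IFIT starts had more of the peak upstream than downstream. The upstream part made up 93.0% of the peak at the first IFIT3 start, 80.2% at IFIT1, 62.6% at IFIT5 and 61.6% at the inner IFIT3 start. Among the 133 other starts under a TASOR KO peak, 71 (53.4%) had the longer part upstream, with medians of 1012 bp upstream and 1009 bp downstream. The medians at the IFIT starts were 1692.5 bp and 733 bp. This comparison was chosen after the positions were seen, rests on 4 starts of 1 locus, and was not tested.

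**Figure D2:**
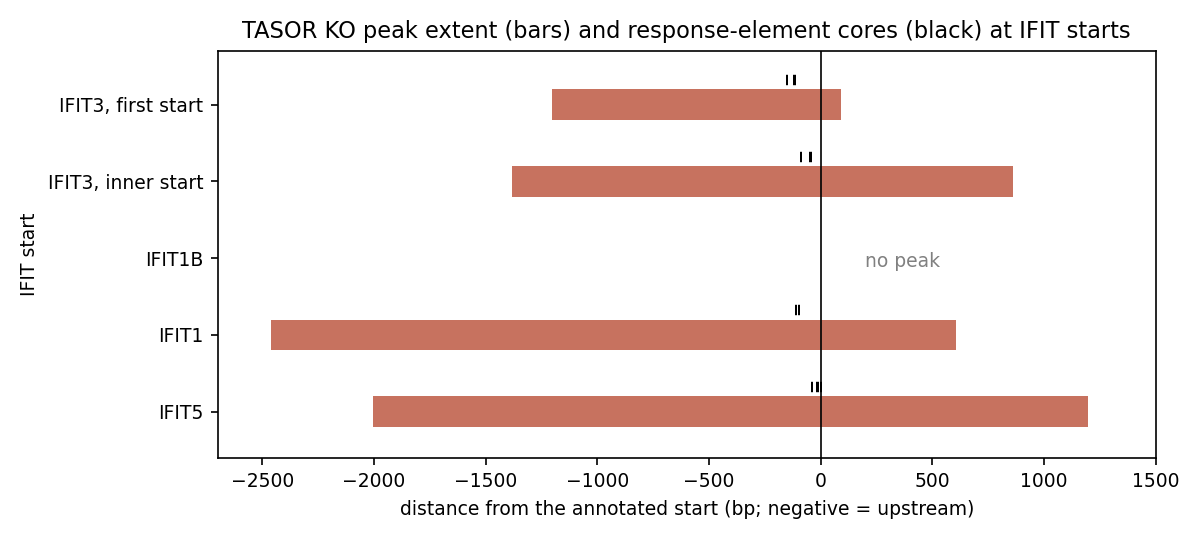
Extent of the TASOR KO peak (bars) around each annotated IFIT start, with distance from the start in bp on the x axis (negative is upstream) and matches to the response-element core as black marks. Bars reach from 1204 to 2461 bp upstream and from 89 to 1196 bp downstream, the marks lie no farther than 156 bases from the 4 covered starts, and IFIT1B has neither bar nor mark.

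Genes that share the ground with the cluster limit which gene a peak can be assigned to. RefSeq draws LIPA, which encodes lysosomal acid lipase, from 89213572 to 89414679 on the opposite strand, so that 4 of the 5 peaks lay wholly within its annotated span and the IFIT5 peak covered its upper end. The LIPA start at 89414679 and the IFIT5 start at 89414568 lie head to head on opposite strands with an overlap of 112 bp, so the same peak covered both starts. This LIPA promoter held 34 CpG dinucleotides and 0 matches to the core. The LIPA start at 89342689, also within the window, lay under no peak. Of the flanking genes listed on either side, CH25H, SLC16A12, PANK1, KIF20B, HTR7 and STAMBPL1 had 0 peaks in both lists.

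Outside the window the next TASOR KO peaks were far away. Below it, a peak in the noncoding gene LOC124902552 (89083961 to 89086689, fold 3.89, −log10 q 1.34) lay 215 kb from IFIT2, and one in ACTA2 and FAS (88974774 to 88976019, fold 3.49, −log10 q 0.83) lay 326 kb from it. Above it, the next was in LCOR, 7.56 Mb from IFIT5. The nearest TASOR2 KO peaks were in SGMS1, 38.9 Mb below the cluster, and in ZNF518A, 6.74 Mb above it.

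Peak numbers show how complete each list is over this stretch. The 5 IFIT peaks are numbered 2428 to 2432 without a gap, and with the 2 peaks below them they form the longest unbroken run on 1 chromosome in the TASOR KO list (7 peaks, from 2426; the next longest run has 6). Over that list 83 of 406 neighbouring pairs on the same chromosome (20.4%) have consecutive numbers. In the TASOR2 KO list 147 of 245 pairs (60.0%) do, and its longest run has 34 peaks. Peak numbers run from 1612 to 13397 in the TASOR KO list and from 1 to 1512 in the TASOR2 KO list. How long either numbered list was in full is not given, and its bearing on the IFIT counts was not tested. If the numbers follow position, as those in the TASOR KO list do, no numbered call between the IFIT peaks is missing from it. Above the IFIT5 peak, 4 numbers are missing before the LCOR peak, so calls may lie in that interval. In the TASOR2 KO list the peaks on either side of the cluster are numbered 449 and 472, so 22 numbered calls between 50.4 and 96.2 Mb are not in the list. Whether any of those lay at an IFIT gene was not analysed here, and the 0 therefore describes the deposited list and not MPP8 occupancy.

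Against the whole TASOR KO list the IFIT peaks were moderate in strength. Their folds ran from 3.58 to 4.43 (median 3.78), within a list range of 2.49 to 6.57 (median 3.35), and all 5 lay above the list's medians of fold and of −log10 q (0.796). Their median width was 3069 bp against 1929 bp, and 4 of the 5 were wider than the list median. Ranks by −log10 q ran from 70 to 175 of 427, and the q of 0.05 fell at rank 138. The peaks covered 13.5 kb, or 9.74% of the window.

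**Figure D3:**
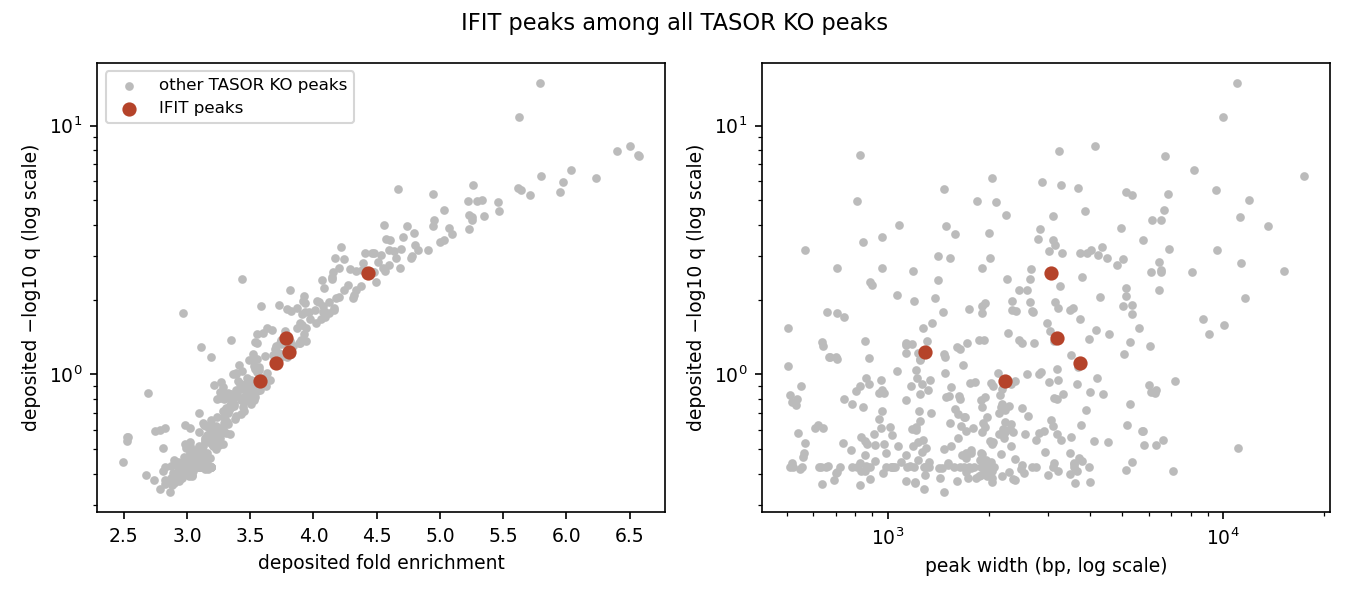
Deposited −log10 q (log scale) of each of the 427 TASOR KO peaks against its deposited fold enrichment (left) and its width in bp (right, log scale), with the 5 IFIT peaks in red. The IFIT peaks sit in the middle of the range, from fold 3.58 to 4.43 and from 1294 to 3732 bp.

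Tiles show how many peaks stretches of this length held elsewhere. The window was drawn around a cluster chosen with its peaks known, so the tile counts are a description and were not tested. Chromosomes with TASOR KO peaks were divided into 19199 tiles of the window's length (138952 bp), of which 1.86% held a peak and 0.0104% (2 tiles) held 5 or more. A tile border split the IFIT peaks into 3 and 2, so the cluster is not among those 2 tiles, which lay on chromosome 16 around ZNF200 (6 peaks) and on chromosome 10 around ZNF239 and ZNF485 (5 peaks). With tiles shifted by 50% of their length, 2 tiles again held 5 or more peaks, that of the IFIT cluster and again the one around ZNF239 and ZNF485. The shifted tiles around ZNF200 held fewer than 5 peaks each. In the TASOR2 KO list 0.0106% of 18821 tiles held 5 or more peaks, on chromosomes 7 and 21.

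Other antiviral gene clusters are given for comparison, by a list of 10 clusters with 35 genes. By the same rule 13 of the 35 had a TASOR KO peak and 0 had a TASOR2 KO peak, beside 1.12% and 0.893% of all protein-coding genes. A share of 0.893% is less than 1 gene in 35. All 4 genes of the SP100 cluster, whose products form nuclear bodies, had a TASOR KO peak, as had DDX60 and DDX60L, helicase genes of RNA sensing, and SAMD9 and SAMD9L, which restrict poxviruses. Their peaks were like those of the IFIT cluster in some values and unlike in others. The folds were 5.95 and 6.24 at DDX60L and DDX60, above each of the 5 IFIT folds. The width at DDX60 (2042 bp) lay within the IFIT widths, and that at DDX60L (5131 bp) was above each of them. At SAMD9L and SAMD9 the widths were 6314 bp and 11327 bp, wider than each of the 5. The fold at SAMD9 (4.39) lay within the IFIT range, and SAMD9L (fold 3.39, −log10 q 0.87) was below each IFIT peak in both values. Folds at the SP100 cluster ran from 3.29 to 5.23 and included the IFIT range.

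Other clusters had fewer members with a peak or none. APOL1, APOL2 and APOL3 of 6 APOL genes, HERC6 but not HERC5, and MX1 but not MX2 had a TASOR KO peak. The MX1 peak (fold 2.83, −log10 q 0.36) was weaker by both values than any IFIT peak. The 3 OAS genes, which encode synthetases that activate RNase L, and 5 IFITM genes, which encode membrane proteins that block viral entry, had 0. The 7 GBP genes and the 2 genes IFI44 and IFI44L also had 0, but they lie on chromosome 1, where the TASOR KO list has no peak at all. The TASOR2 KO list has none on chromosome 22, which carries the APOL genes.

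**Figure D4:**
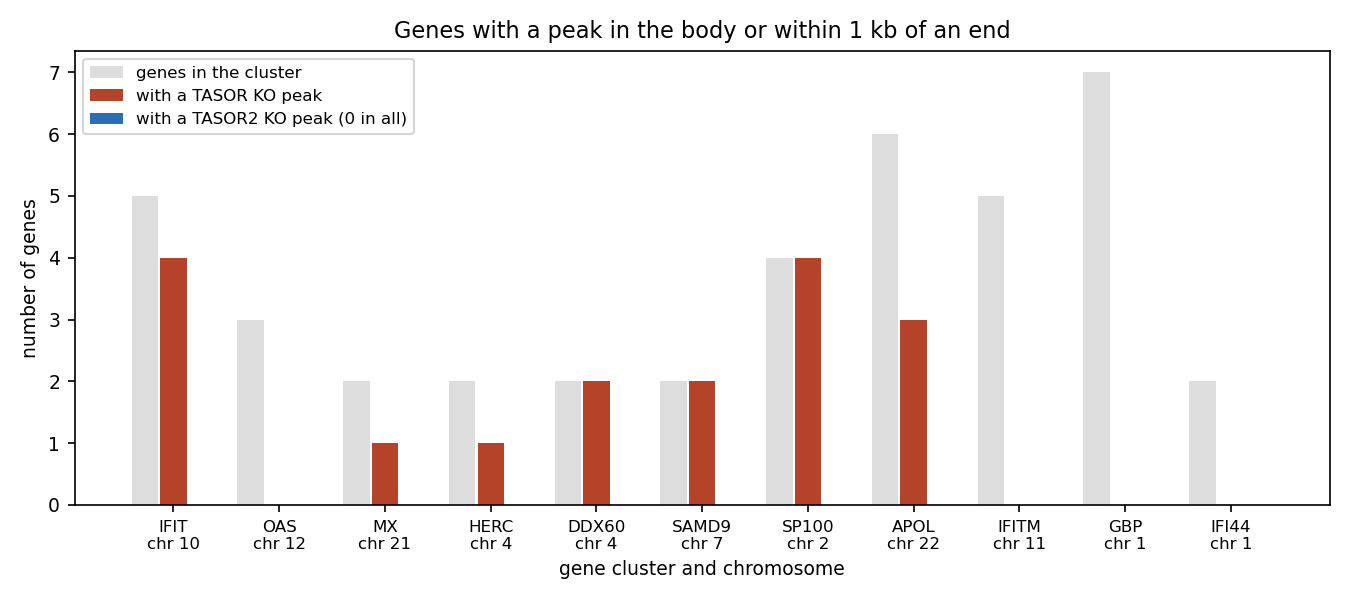
Number of genes in each antiviral gene cluster (grey) and number with a TASOR KO peak (red) or a TASOR2 KO peak (blue, 0 everywhere), with each gene extended by 1 kb. IFIT has 4 of 5, SP100 4 of 4, DDX60 and SAMD9 2 of 2, and OAS and IFITM 0; the TASOR KO list has no peak on chromosome 1, where GBP and IFI44 lie.

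The core motif and the peaks did not go together at every cluster. Both DDX60 and DDX60L starts held the core and lay under a peak, as the 4 IFIT starts did. At the SP100 cluster 4 of 6 starts lay under a peak and 0 held the core. At the IFITM cluster 2 of 3 starts held the core and 0 lay under a peak, and at OAS 1 of 2 and 0. Over all starts under a TASOR KO peak other than those of the IFIT genes, 28 of 133 (21.1%) held the core, against 3.57% of all promoters. Among the 133 were 22 starts of the interferon-stimulated genes listed below, of which 14 held the core. The core was not alone in this: the gamma-activated site was found at 21 of the 133 (15.8%), against 7.66% of all promoters.

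A wider list of 109 other interferon-stimulated genes, which includes most of these clusters, had 28 genes with a TASOR KO peak and 0 with a TASOR2 KO peak, beside 1.12% and 0.893% of all protein-coding genes. Of the 109, 96 lie on chromosomes with a TASOR KO peak and 95 on chromosomes with a TASOR2 KO peak. The rest could not be counted. Outside the clusters the counts were 15 and 0 of 80. The TASOR KO peaks of highest −log10 q were those of HERC6 (7.60), DDX60 (6.15), TAP2 (5.57), DDX60L (5.41), RBCK1 (4.34), the peak shared by SP110 and SP140 (3.84) and that of APOL2 (3.46), all above the 2.56 of IFIT1. The promoter table holds 106 starts of the listed genes. Of these, 14 of the 22 under a TASOR KO peak held the core (63.6%) and 37 of the other 84 did (44.0%). Those 84 may include starts on chromosomes without a TASOR KO peak, which could not lie under one. For the stricter form the order turned, with 4 of the 22 (18.2%) and 17 of the 84 (20.2%).

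Genes that carry the interferon signal or sense RNA were listed apart. Of those named here, IRF2, EIF2AK2 and ZC3HAV1 are also in the list of other interferon-stimulated genes above, so their peaks count in both. IRF2, which encodes a repressor of interferon responses, had a TASOR KO peak (fold 3.93, −log10 q 1.93). JAK2, which encodes a kinase of interferon gamma signalling, had a TASOR2 KO peak (fold 4.11, −log10 q 1.17). Of 23 genes of cytosolic RNA sensing, EIF2AK2 (−log10 q 0.43) and ZC3HAV1 (0.70) had a TASOR KO peak, each below the weakest IFIT peak, and 0 had a TASOR2 KO peak, beside 1.12% and 0.893% of all protein-coding genes. In each list 20 of the 23 lie on chromosomes with a peak.

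Likeness to each IFIT peak was measured as the difference in −log10 q among 89 other protein-coding genes with a TASOR KO peak over a gene end and no TASOR2 KO peak, over these 2 samples. SP140L was nearest to IFIT1 (2.58 against 2.56) and PLAAT3 to IFIT5 (1.39 against 1.41). PANX1 was nearest to the first IFIT3 peak (1.18 against 1.24), ASCC3 to the inner one (0.94 for both) and TIGD7 to IFIT2 (1.14 against 1.11). The next nearest were NAA60 and ZNF597, which share a peak, for IFIT1, ZNF283 and PIGG for IFIT5, PARP12 and PSMB9 for the first IFIT3 peak, MTERF1 and PLAAT4 for the inner one, and RRS1 and PSMB9 for IFIT2.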

How the data were processed

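Of the 15 samples, grouped by title, the 2 with a processed file were used. The submitters' processing notes name hg38 and mm9 as builds and deepTools, MACS2 and Bowtie2 (version 2.3.5.1) as tools. Which control and which thresholds peak calling used, and whether it used the mouse spike-in, is not given in the sources. The deposited lists, called per sample, have no header and 9 columns in MACS2's broad peak order. The fold (a ratio), −log10 p, −log10 q and score are the authors' deposited values per peak, used to describe and rank within a list. The score equalled the whole part of 10 times −log10 q in all 427 and 264 peaks. Peak names carry tags of 0.5 (TASOR KO) and 0.3 (TASOR2 KO), with a largest q of 0.460 and 0.258. What the tags mean and how peaks were chosen from the longer numbered lists is not given, so the lists may differ through calling as well as genotype. Read depth is unknown.

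Coordinates are 1-based. Genes and promoter sequences came from RefSeq tables (GRCh38.p14). Overlap meant 1 bp or more. Overlap and motif steps recovered 200 of 200 simulated items each. The simulated peaks all lay within 1 kb of a gene, and the simulated motifs all lay on the forward strand. The search of the other strand, which gave all IFIT matches to the core, was therefore not checked in this way. Members and gene lists were chosen with earlier results of these data known. Named genes were all members, genes of the window, listed flanking genes, members of the antiviral clusters with a peak, up to 8 genes per list by −log10 q, and the 3 nearest genes per IFIT peak. NPR3, ZNF200, ZNF239, ZNF485 and the genes of the next peaks on chromosome 10 were named after their values were seen, and so were the cluster genes without a peak. Counts of the signalling list are not reported here. The planned protein comparison was not run. Python 3.11.15, pandas 2.3.3, numpy 2.4.6 and matplotlib 3.10.9 were used.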

Additional observations from a re-analysis of the deposited data

How the results depend on the processing

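Of 47 alternative counts over 13 results, 43 stayed within 1.5 times the main count, 24 of them at 0. With a q of 0.05 or less, the TASOR KO count fell from 5 to 2 IFIT peaks, from 4 to 2 IFIT genes and from 28 to 17 other interferon-stimulated genes. With shifted tiles, the TASOR2 KO count of tiles with 5 or more peaks went from 2 to 0. In both cases the alternative's own construction, fewer peaks or other tile borders, gives the change. With a window of 5 kb all 5 IFIT genes counted, IFIT1B through the IFIT1 peak, and by peak centre 3 did. No paired analysis was possible because there was 1 library per genotype. No library could be left out either. Depth is unknown, so no limit of detection could be given for the 0 in TASOR2 KO.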
